A study of Mus musculus with 9 samples.

Results

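The 100 rows described here had the largest ratio between their lowest level with B-LGND2 and their highest level in any vehicle-treated library, in white adipose tissue of mice. They were taken from 39130 rows, of which 15095 reached a mean of 5 CPM (the count divided by the library's total count, times 1e6, with no correction for length) over the 9 libraries. The ratio was (lowest of 3 B-LGND2 libraries + 0.1) / (highest of 6 vehicle libraries + 0.1), and it exceeded 1 in 908 rows, 6.02% of those at the level minimum. The opposite order, with every vehicle library above every B-LGND2 library, was found in 116 rows. Both counts changed with the scaling of the libraries, as given below. The same values chose the members, so their higher level with B-LGND2 is a description, and no test of it is offered as support.

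All mice were male C57BL/6, an inbred laboratory strain, and were fed and treated for 9 weeks. The 3 groups of 3 libraries were normal diet with vehicle, high fat diet with vehicle, and high fat diet with B-LGND2. No library combines the normal diet with B-LGND2, so the ligand can be compared with vehicle on the high fat diet only. Neither the labels nor the design text give the age of the mice, the dose of B-LGND2, the fat depot or any pooling of animals.

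White adipose tissue stores triglyceride in adipocytes and also holds blood vessel cells, fibroblast-like stromal cells and immune cells. A high fat diet enlarges adipocytes and draws macrophages into the tissue. Estrogen receptor beta, to which the series title assigns the ligand, is a nuclear receptor that binds DNA when occupied by ligand and changes transcription of nearby genes. In a bulk sample, more cells of a type and more RNA per cell cannot be told apart. Each row is known only by a GI number, formerly used to index sequence records, without a gene name beside it. As 0 of the 39130 numbers matched a reference identifier, function, position and sequence are not given, the tissue could not be checked against adipocyte markers, and markers of other cell types were not examined. The 2 leading members are named by GI number and the others by their rank in the ratio.

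Total counts were between 30067542 and 43129222 reads per library. Normal diet vehicle replicate 2 resembled libraries of another group more than its own. Across tested rows outside the members, its log2(CPM + 0.1) values correlated at 0.862 and 0.853 with replicates 1 and 3 of its group. With B-LGND2 replicate 1 they correlated at 0.970. This was not particular to that library. High fat diet vehicle replicate 2 correlated at 0.912 and 0.850 with replicates 1 and 3 of its group, and at 0.951 with normal diet replicate 2. High fat diet vehicle replicate 1 and B-LGND2 replicate 2 correlated at 0.974 with each other and lower within their own groups. Normal diet vehicle replicate 2 also had at most 1 CPM in each of 115 rows. These rows reached 100 CPM in both other libraries of its group, where they took 11.4% and 11.5% of counts. Their share lay between 1.86% and 6.65% for the high fat diet with vehicle, and with B-LGND2 it was 0.0173%, 4.80% and 0.0198% in replicates 1, 2 and 3. None of the members was among these rows (0 of 100). Shares this large lower the CPM of every other row in the same library. Members were therefore also ranked after TMM scaling, which uses a trimmed mean of the log ratios between libraries. The TMM factors did not follow these shares, at 1.004, 0.838 and 0.883 for normal diet replicates 1, 2 and 3. A factor under 1 raises the levels of a library, so TMM scaling raised those of replicate 2. What the 115 rows contribute to the change with scaling was not tested.

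GI 142385341 had the largest ratio, 2.96. It was at 238, 322 and 249 CPM on the normal diet, at 107, 136 and 75.2 CPM on the high fat diet with vehicle, then at 2593, 954 and 1471 CPM with B-LGND2. Every B-LGND2 library was thus above every vehicle library, and the high fat diet vehicle libraries were the lowest of all. The means were 269.9 ± 45.4 CPM, 106 ± 30.2 CPM and 1673 ± 838 CPM (SD, n = 3 each), so that B-LGND2 was 15.8-fold above vehicle on the high fat diet and 6.20-fold above the normal diet. The B-LGND2 libraries differed among themselves more than the vehicle libraries of either diet did.

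GI 21704173, with a ratio of 2.74, had far more even values. Its levels were 31.8, 28.1 and 27.4 CPM on the normal diet, 22.8, 22.4 and 20.8 CPM with high fat diet and vehicle, and 116, 87.4 and 107 CPM with B-LGND2. The 3 groups did not overlap in this row. Its mean with B-LGND2 was 4.71-fold that of high fat diet vehicle and 3.56-fold that of the normal diet. With TMM scaling it moved from the second rank to the first and GI 142385341 moved to the third.

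**Figure D1:**
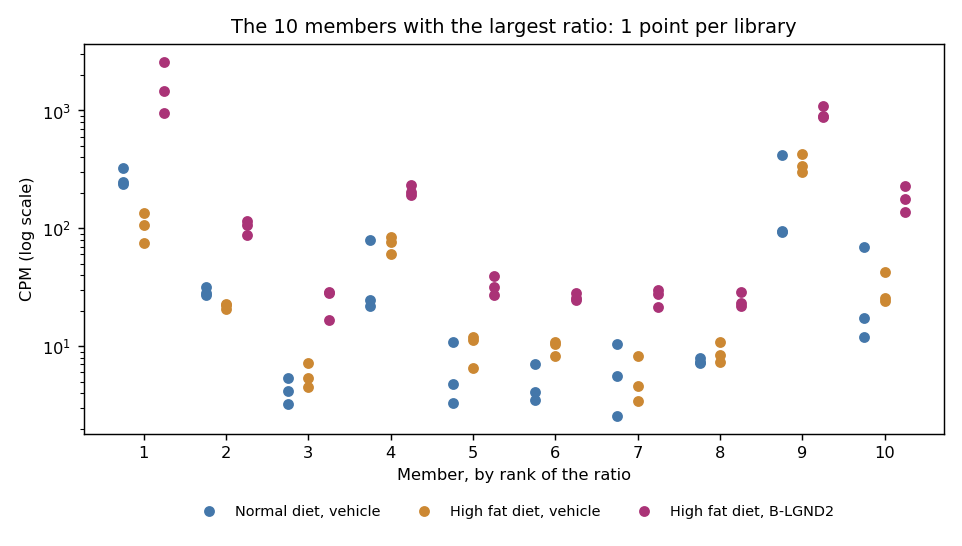
Level of the 10 members with the largest ratio (x axis, rank) in CPM on a log axis, with 1 point per library and the 3 groups in separate colours. By the rule, the B-LGND2 points lie above all vehicle points. In some members, among them those ranked 4, 5 and 9, one normal diet point, replicate 2, lies at the high fat diet level.

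The third member was a row of low level, at 4.18, 5.41 and 3.22 CPM on the normal diet, 7.14, 5.35 and 4.49 CPM with high fat diet and vehicle, and 28.2, 16.8 and 28.6 CPM with B-LGND2. Its vehicle groups overlapped, and its mean with B-LGND2 was 4.33-fold that of high fat diet vehicle. The members ranked 4 and 9 shared another pattern. The row ranked 4 was at 24.6, 79.3 and 22.0 CPM on the normal diet, 77.0, 60.7 and 84.1 CPM on the high fat diet, and 193, 203 and 234 CPM with B-LGND2. The row ranked 9 was at 92.6, 418 and 94.8 CPM on the normal diet, 335, 303 and 431 CPM on the high fat diet, and 899, 874 and 1098 CPM with B-LGND2. In both rows normal diet vehicle replicate 2 was at the level of the high fat diet libraries and the other 2 normal diet libraries were far lower. This was not particular to them. The row ranked 5 was at 4.78, 10.75 and 3.32 CPM on the normal diet and 6.55, 11.4 and 11.9 CPM with high fat diet and vehicle. In the rows ranked 4 and 9 the B-LGND2 libraries were close together. Replicate 2 did not stand out as low in the row ranked 4.

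The row ranked 37 had the second largest fold over high fat diet vehicle among the members, 15.4, although its ratio was only 1.47. It was at 13.1, 19.5 and 5.32 CPM on the normal diet, 5.10, 4.45 and 2.10 CPM with high fat diet and vehicle, and 65.4, 28.7 and 84.7 CPM with B-LGND2. The ratio was set by normal diet replicate 2 and B-LGND2 replicate 2, the closest libraries of the opposed groups. The row ranked 10 went against the usual order of the B-LGND2 libraries, with 138, 230 and 179 CPM in replicates 1, 2 and 3 against 12.0 to 69.5 CPM over the vehicle libraries. In the row ranked 24 the fold over high fat diet vehicle, 6.05, rested largely on a single library. The row was at 5.74, 5.92 and 23.6 CPM with B-LGND2 and at 1.07 to 3.54 CPM with vehicle. Its ratio used the lowest B-LGND2 library, so the highest one did not enter it.

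Small but even differences also entered the list. The row ranked 55 was at 21.5, 22.0 and 21.1 CPM with B-LGND2, at 15.3, 11.5 and 11.5 CPM on the normal diet and at 15.1, 15.1 and 12.4 CPM on the high fat diet with vehicle. This is 1.51-fold above high fat diet vehicle. At the edge of the list the ratio was 1.2802 and 1.2788 for the last 2 members and 1.2785 and 1.2748 for the first 2 rows outside, so the limit at 100 rows marks no gap.

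Over the 100 members, the fold of the B-LGND2 mean over high fat diet vehicle ranged from 1.34 to 15.8 with a median of 2.35 (quartiles 1.77 and 3.22). It was at least 2 in 64 members, at least 3 in 30 and at least 5 in 6. Among all rows at the level minimum, 323, 111 and 45 reached these folds, and the highest fold was 39.1. The members are therefore not the rows with the largest folds. Over the normal diet the fold ranged from 1.37 to 12.3 with a median of 2.91. In 9 members every B-LGND2 library was more than 2-fold above the highest vehicle library. Over all 15095 rows at the level minimum the median fold of B-LGND2 was 0.997 against high fat diet vehicle and 1.15 against the normal diet. Mean levels with B-LGND2 ranged from 7.35 to 1673 CPM with a median of 46.9 CPM. They were at least 100 CPM in 25 members and under 20 CPM in 20. Every member value rested on at least 36 reads, and every value in a B-LGND2 library on at least 180. Summed over the members, 0.279% to 0.463% of counts fell on them in the 6 vehicle libraries, against 1.28%, 0.917% and 1.29% in the B-LGND2 libraries.

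**Figure D2:**
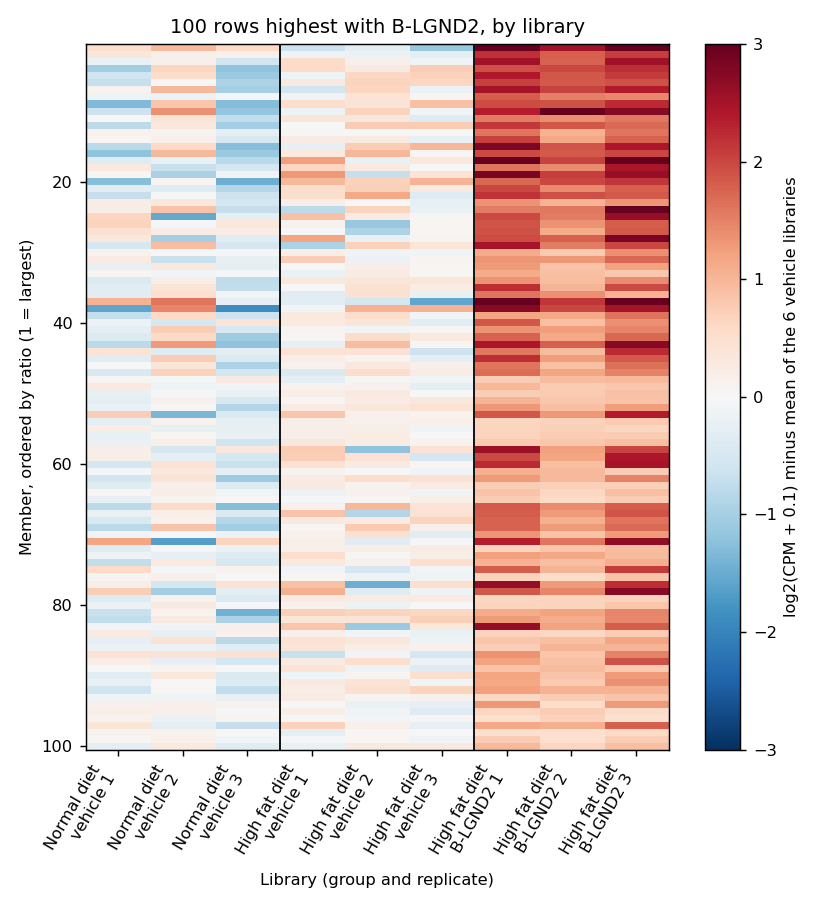
The 100 members (y axis, ordered by ratio) in the 9 libraries (x axis, by group and replicate), coloured by log2(CPM + 0.1) minus the mean of the 6 vehicle libraries, with values beyond 3 shown at the end of the scale. B-LGND2 replicate 2 is paler than replicates 1 and 3 in most rows, being the lowest of the 3 in 71 members.

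The B-LGND2 libraries were not equal over the members. Replicate 2 was the lowest of the 3 in 71 members, and its level was a median of 0.771 of the mean of replicates 1 and 3, with a range of 0.363 to 1.45. This median was 0.972 in the 808 other rows with a ratio above 1. Over all rows at the level minimum it was 1.05, and replicate 2 was the lowest in 5705 of 15095 rows. Replicates 1 and 3 were alike, with a median quotient of 1.02. Replicate 2 was also the library with the larger share of the 115 abundant rows, and the part of this in its lower levels was not tested. Across rows outside the members this library correlated best with high fat diet vehicle replicate 1, at 0.974. The members were 1.29-fold to 9.52-fold higher in it than in that vehicle library, with a median of 1.72. Against normal diet vehicle replicate 2, its closest vehicle library, B-LGND2 replicate 1 was higher by a median of 2.28-fold over the members. The rule used all of these libraries and left no member with a ratio under 1.28, so both quotients only describe the choice.

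The vehicle library that came closest to B-LGND2 differed between members. It was high fat diet replicate 1 in 28, normal diet replicate 2 in 27, high fat diet replicates 2 and 3 in 16 and 15, and normal diet replicates 1 and 3 in 11 and 3. Normal diet replicate 2 was above both other libraries of its group in 66 members and below both in 24. Over all rows at the level minimum it was above in 43.4% and below in 50.2%. In the 808 other rows with a ratio above 1 it was above in 63.4% and below in 21.9%, so this is not particular to the members. It was more than 2-fold above both in 18 members, against 15.4% of all rows at the level minimum and 9.41% of those other rows.

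Whether the order held in a library that took no part in the choice was read by applying the rule to 8 libraries and looking at the ninth. The level that the ninth was set against came from the 8 libraries that chose the rows. Part of any excess over all rows is therefore built into the choice, and the counts are given as a description. Without B-LGND2 replicate 1, 83 of the 100 rows chosen had that library above all 6 vehicle libraries, where 16.3% of all rows at the level minimum did. For B-LGND2 replicates 2 and 3 the counts were 91 and 97, against 18.8% and 19.2%. For a left-out vehicle library the order held when it lay below all 3 B-LGND2 libraries. The counts were 99, 78 and 100 for normal diet replicates 1, 2 and 3, where 51.5%, 49.7% and 49.5% of all rows at the level minimum held it, and 91, 94 and 93 for high fat diet replicates 1, 2 and 3, against 40.9%, 36.8% and 35.6%. The other rows whose ratio exceeded 1 on the same 8 libraries kept the order in 71.4%, 43.1% and 87.8% for B-LGND2 replicates 1, 2 and 3, in 95.5%, 61.5% and 98.1% for the normal diet replicates, and in 83.8%, 76.6% and 66.4% for the high fat diet vehicle replicates. The difference between these rows and the 100 chosen ones was not tested. Left-out B-LGND2 levels were a median of 1.63, 1.33 and 1.96 times the highest vehicle level in the chosen rows, for replicates 1, 2 and 3. The lowest values were 0.0890, 0.745 and 0.803, so the first list held at least 1 row that was far below vehicle in replicate 1. Over tested rows outside the members, B-LGND2 replicates 1 and 3 correlated at 0.984 with each other and at 0.928 and 0.926 with replicate 2. Correlations between libraries of different groups reached 0.974, so these values do not measure dependence between libraries. Whether a left-out library is independent of those that chose the rows was not tested.

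**Figure D3:**
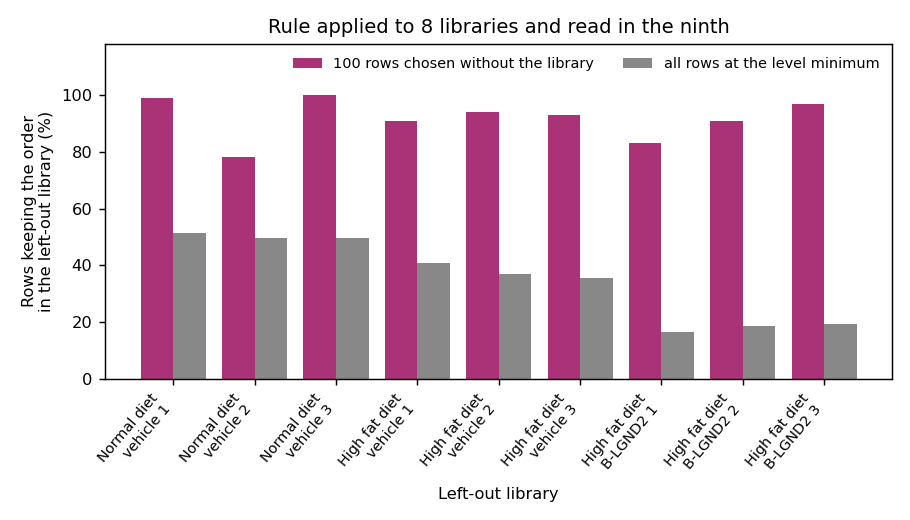
Percent of rows (y axis) whose order held in the library left out of the choice (x axis), for the 100 rows chosen on the other 8 libraries and for all rows at the level minimum. The chosen rows lie between 78% and 100%, the lowest for normal diet vehicle replicate 2. The left-out library was set against levels in the choosing libraries, so part of the excess is built into the choice.

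The list depended on how libraries were scaled. With TMM scaling, 64 of the 100 members were again among the 100 largest ratios, and 98 kept every B-LGND2 library above every vehicle library. The number of rows with a ratio above 1 fell from 908 to 448, while rows in the opposite order went from 116 to 158. The ratio became smaller in 74 members, including all 27 in which normal diet replicate 2 was the highest vehicle library. Without normal diet vehicle replicate 2 the rule took 50 of the same 100 rows, and without B-LGND2 replicate 2 it took 58. Under all 14 alternatives of the rule 27 members were taken, among them all of the first 10, 21 of the first 25 and 0 of the last 50.

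**Figure D4:**
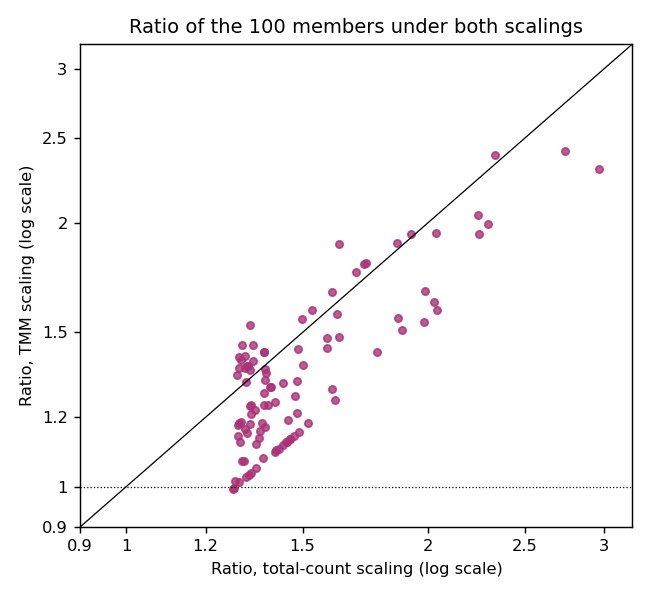
Ratio of each of the 100 members with libraries scaled by total counts (x axis) and by TMM (y axis), both on log axes, with the line of equal ratios and a dotted line at 1. The lowest ratio was 1.28 with total counts and 0.995 with TMM, and most points lie below the line of equal ratios.

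The diet comparison within the vehicle libraries asked whether members also differed between high fat and normal diet. The ranking did not use this contrast itself. It divided by the highest of the 6 vehicle libraries, so a row with 1 vehicle group raised ranked lower. The diet values of the members are therefore not free of the rule and are given as a description. No member passed the test in either direction (0 higher and 0 lower of 100, limma-voom with Benjamini-Hochberg adjustment over all 28831 tested rows, smallest adjusted p 0.601), and among all tested rows 0% passed in each direction. At an unadjusted p under 0.05 the high fat diet was higher in 5 members and lower in 6, beside 2.38% and 5.66% of all rows at the level minimum. The lower count is near its background, and the higher one rests on 5 rows. The median log2 difference was 0.07 over the members, with a range of -1.81 to 1.58, and -0.08 over all rows at the level minimum.

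Both leading members were lower on the high fat diet with vehicle than on the normal diet, and both were then highest with B-LGND2. GI 142385341 had a log2 diet difference of -1.63 ± 0.38 (SE; limma-voom adjusted p = 0.601, range over 13 alternatives 0.167 to 0.944), and all 3 high fat diet vehicle libraries were below the 3 normal diet libraries. GI 21704173 had a log2 diet difference of -0.64 ± 0.19 (SE; limma-voom adjusted p = 0.601, range 0.179 to 0.944) and the same lack of overlap. The rows ranked 26, 27, 37 and 87 were the other members below the unadjusted threshold on this side, with log2 differences of -0.89, -0.84, -1.81 and -1.10.

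In the row ranked 20 the groups stood in another order, with the high fat diet between the normal diet and B-LGND2. It was at 10.4, 26.7 and 9.15 CPM on the normal diet, 49.5, 40.7 and 51.1 CPM with high fat diet and vehicle, and 83.3, 102 and 113 CPM with B-LGND2, with no overlap between groups. Its log2 diet difference was 1.58 ± 0.39 (SE; limma-voom adjusted p = 0.601). The rows ranked 6, 21, 81 and 92 had unadjusted p-values under 0.05 in the same direction. Without normal diet vehicle replicate 2, limma-voom called 3 members higher on the high fat diet, at ranks 4, 9 and 20, with log2 differences of 1.38, 1.64 and 1.99 and adjusted p-values of 0.0360, 0.0348 and 0.0259, the lowest over the alternatives, which reached 0.944 in each row. That fit called 0.211% of all tested rows higher. All 3 are rows in which the left-out library was the highest of its group.

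Counts of non-overlapping diet groups changed direction with the scaling. With total counts, every high fat diet vehicle library was above every normal diet library in 17 members, beside 7.43% of rows at the level minimum, and below in 7, beside 2.17%. With TMM scaling the counts were 3 above, beside 2%, and 15 below, beside 9.26%. The rule uses the highest vehicle level, so these counts are not free of it. The median coefficient of variation between high fat diet vehicle libraries was 17.8% in members and 27.7% in all rows at the level minimum. Between normal diet libraries it was 28.2% and 28.7%. In the 808 other rows with a ratio above 1 it was 11.5% on the high fat diet and 13.0% on the normal diet. No direction of a diet change over the members can be read from these counts.

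**Figure D5:**
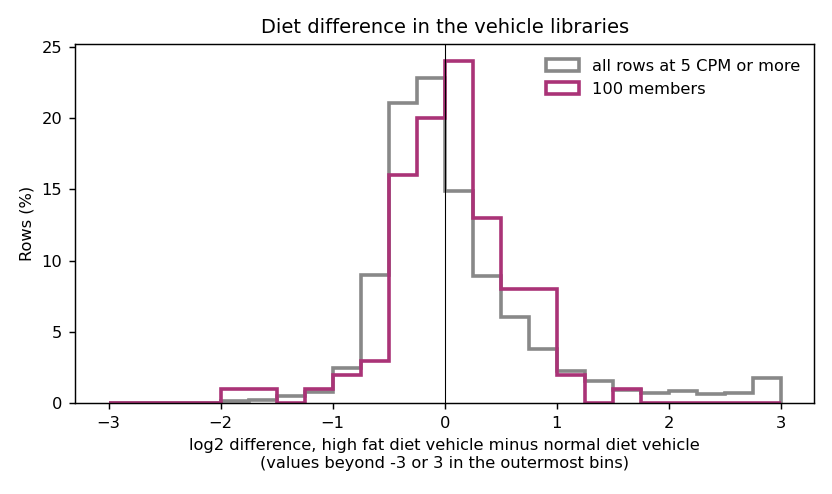
Percent of rows (y axis) by the fitted log2 difference between high fat diet vehicle and normal diet vehicle (x axis), for the 100 members and for all 15095 rows at the level minimum. The members lie around 0 with a median of 0.07 and range from -1.81 to 1.58.

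In the comparisons that the rule used, limma-voom called 0 of 100 members for B-LGND2 against high fat diet vehicle and 0 of 100 for B-LGND2 against the normal diet, beside 0% of tested rows in each. At an unadjusted p under 0.05 there were 96 and 97 members higher, where 5.01% and 5.45% of rows at the level minimum were higher; since the choice fixed these counts, nothing is read from them or from the fitted differences. The log2 difference from high fat diet vehicle ranged from 0.49 to 3.95 with a median of 1.31. For GI 142385341 it was 3.95 ± 0.44 (SE) and for GI 21704173 it was 2.29 ± 0.20 (SE).

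No member had the same counts as any other row in all libraries. The members ranked 13 and 30 are neighbours in the table. The first was at 28.4, 27.6 and 21.6 CPM on the normal diet, 26.8, 26.2 and 25.9 CPM with high fat diet and vehicle, and 79.5, 53.6 and 79.3 CPM with B-LGND2. The second was at 8.12, 7.27 and 7.30, then 8.57, 6.97 and 6.89, then 16.4, 12.9 and 19.5 CPM. Both were even over the 6 vehicle libraries and lowest in replicate 2 among the B-LGND2 libraries. Whether the 2 rows share reads with several matches is unknown, since the counting is not described.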

How the data were processed

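RNA of white adipose tissue was enriched for poly(A) RNA and sequenced on an Ion Torrent Proton machine, per the labels' protocols. STAR 2.5.2 and the build mm9 appear, with no role, in the submitters' processing notes; for the counting tool, annotation and strand use there is no statement. The authors deposited raw read counts per GI number, whole numbers in 1 column per library, matched to samples by the numbers in the labels' titles. CPM are counts divided by the column total, times 1e6. Members and tests were chosen with earlier results of these data known.

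Rows with a CPM equal to 10 counts in a median library in 3 or more libraries, and a sum of 15 counts, were tested: 28831 rows, all 100 members included. A group-means model of the 9 libraries was fitted by limma-voom (limma version 3.58.1 in R 4.3.3), with TMM factors (trimming fractions 0.3 and 0.05) and two-sided Benjamini-Hochberg adjusted p-values at 0.05. The design named a quasi-likelihood count test first and limma-voom for the case that the automated unit check could not read the table, which occurred; negative binomial count models were not run. The 2 members with the largest ratio were named by number under the rule for named rows; other ranks were described after their values were seen. The labels do not say whether libraries are separate mice. The p-values set group differences against the spread between libraries, and whether they extend to mice is unknown. The fit was run on simulated counts with known changes in the high fat diet vehicle group and otherwise even libraries. That setting held no library like normal diet vehicle replicate 2, so it does not measure how the fit performs on these data. Figures were drawn with matplotlib 3.10.9.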

Additional observations from a re-analysis of the deposited data

How the results depend on the processing

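With size factors by median of ratios, 62 members were taken again and 319 rows had a ratio above 1. With TMM these were 64 and 448. Rows in the opposite order numbered 196 with median of ratios and 158 with TMM. Non-overlapping diet groups then numbered 2 higher and 15 lower with median of ratios, beside 1.68% and 10.8% of rows at the level minimum. With TMM they numbered 3 and 15, beside 2% and 9.26%. Leaving out each library, 50 to 97 members were taken and 939 to 1985 rows exceeded 1. For the unadjusted diet counts that follow, the share over all rows was not computed. They are therefore not read as a result about the members. Scaling by total counts in the fit gave 16 members higher and 3 lower for diet at an unadjusted p under 0.05. It moved the median log2 diet difference of all tested rows from 0.05 to 0.29 and that of the members from 0.07 to 0.31. It called 1 row, a member, for B-LGND2 against high fat diet vehicle. A fit on only the groups compared gave 3 members higher for diet at an unadjusted p under 0.05 and called 3 rows lower with B-LGND2 than with high fat diet vehicle. Leaving out each library gave 1 to 18 members higher and 3 to 8 lower for diet at an unadjusted p under 0.05, and 0 to 3 called higher. Over all rows it gave 0 to 63 higher and 0 to 197 lower for diet. There were 0 to 1 higher and 0 to 7 lower with B-LGND2 against high fat diet vehicle (0 to 1 member), and 0 to 738 and 0 to 1087 against the normal diet (0 to 49 members). The calls arose without normal diet vehicle replicate 2; the cause was not tested. The rule used both B-LGND2 comparisons, so their counts of members are no support for a difference. No named row changed direction over 13 alternatives. Alternatives for non-overlapping groups, unadjusted diet counts and named rows were added after seeing the data. No paired analysis was possible because the labels pair no libraries. Negative binomial count models were not run.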
